A study of Mus musculus with 48 samples.

Results

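Collagen genes encode the triple-helical proteins of the extracellular matrix, and this account covers the 44 protein-coding genes with a symbol of the form Col, number, a, number, among 21823 protein-coding genes and 55487 genes in the expression table. The rule uses the symbol and the biotype and no measured value. 11 encode fibrillar collagens, 6 encode the type IV chains of basement membranes, and 27 encode other types. The RNA came from the thoracic mammary glands of mice that carried MMTV-rtTA, in which a viral promoter active in mammary epithelium drives an activator that needs doxycycline, together with 1 of 2 responders. The responder tet-op-Esr1 encodes estrogen receptor alpha, and tet-op-CYP19A1 encodes aromatase, the enzyme that makes estrogens from androgens. In each of these models, glands were left uninduced until 12, 18 or 24 months of age, induced for 1 week at 12 or 18 months, induced for 6 or 12 months by the age of 24 months, or induced for 18 months by the age of 30 months. This gave 16 groups of 3 libraries, 48 in all. All groups carried both the activator and a responder. No uninduced gland of 30 months and no gland that received the drug without a responder was analysed here, so the drug and the transgene cannot be told apart.

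Fibrillar collagens (types I, II, III, V, XI, XXIV and XXVII) assemble into the cross-striated fibrils that give connective tissue its tensile strength. Type IV chains form the sheet-like network under epithelium and endothelium and around fat and muscle cells. The other types decorate fibrils (fibril-associated collagens), form microfibrils (type VI), anchor epithelium to stroma (types VII and XVII), or release fragments from basement membrane zones (types XV and XVIII). In the mammary gland, fibroblasts are the main source of fibrillar collagen, and ducts and fat cells rest on basement membrane.

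The values are TPM, a measure of abundance per transcript length that sums to the same total in every library, which keeps no read depth, so the depth behind each value is unknown here. The genes CT010467.1, AY036118 and Lars2 together took 0.0159% to 67.2% of the TPM of a library (median 0.0752%). They are called ribosomal RNA genes below, although Lars2 is a protein-coding gene. In 9 libraries they took over 10%, which lowers the TPM of all other genes there. Each library was therefore divided by 1 factor, the median ratio of its genes to their average over libraries (0.31 to 1.45), and levels below are in these rescaled TPM. Changes are differences of log2(rescaled TPM + 1) between group means, which understates the change of genes near or under 1. A change is called where limma's two-sided test gave a Benjamini-Hochberg adjusted p below 0.05 over the 20209 genes that reached 1 TPM in at least 3 libraries. Titles number the libraries of a group as biological replicates but leave unsaid whether each came from its own mouse, and the p-values cover the spread among libraries only. Markers of luminal epithelium were present in every library, with Krt18 at 33.2 to 163 and Epcam at 21 to 118 rescaled TPM, and so were those of white adipocytes (Adipoq at 161 to 775). Markers of skeletal muscle, which lies next to this gland, were also high and varied widely, with Acta1 at 58.5 to 11300. In such bulk tissue, fewer cells of a type and less RNA per cell cannot be told apart.

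Some collagen genes stand head to head in the mouse genome, and the pairs recur in the results. In mm10, Col4a1 (chr8:11198423-11312826, minus strand) and Col4a2 (chr8:11312805-11449287, plus strand) overlap at their starts by 22 bases. The shared bases are shown because the levels of this pair followed each other closely (Pearson r = 0.94). Col1a1 and Col1a2, on chromosomes 11 and 6, did so too (r = 0.95). The part of the shared start was not tested. Capitals mark a GC box.
Col4a1 and Col4a2 (chr8:11312805-11312826, plus strand): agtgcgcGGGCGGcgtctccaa
Col4a6 (minus strand) and Col4a5 (plus strand) start 1308 bases apart on chromosome X, and Col4a4 and Col4a3 71 bases apart on chromosome 1. Bases upstream of the starts of Col4a5 and Col4a6 are shown because those genes followed the epithelial markers. Those of Col3a1 are shown as the most abundant collagen transcript, and those of Col13a1 as the member with the lowest adjusted p with age. They come from the RefSeq windows of GRCm38.p6, 5′ to 3′ on the strand of the gene, with a TATA box, a CCAAT box or a GC box in capitals, each searched on both strands.
Col3a1 (chr1:45311288-45311537, plus strand): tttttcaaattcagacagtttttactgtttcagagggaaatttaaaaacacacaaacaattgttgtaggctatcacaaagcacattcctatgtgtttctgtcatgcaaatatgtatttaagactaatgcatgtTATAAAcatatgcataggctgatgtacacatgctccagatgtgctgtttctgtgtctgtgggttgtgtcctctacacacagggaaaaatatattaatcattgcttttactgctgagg
Col13a1 (chr10:61979109-61979358, minus strand): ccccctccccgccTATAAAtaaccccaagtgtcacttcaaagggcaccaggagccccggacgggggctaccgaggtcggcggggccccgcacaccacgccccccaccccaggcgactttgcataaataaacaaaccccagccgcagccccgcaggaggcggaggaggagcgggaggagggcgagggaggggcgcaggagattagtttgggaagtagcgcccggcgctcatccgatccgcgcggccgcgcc
Col4a5 (chrX:141475169-141475384, plus strand): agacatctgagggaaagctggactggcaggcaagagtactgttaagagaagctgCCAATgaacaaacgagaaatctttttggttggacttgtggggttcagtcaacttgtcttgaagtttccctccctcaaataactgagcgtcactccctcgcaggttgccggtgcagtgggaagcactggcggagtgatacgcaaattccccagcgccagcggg
Col4a6 (chrX:141474077-141474326, minus strand): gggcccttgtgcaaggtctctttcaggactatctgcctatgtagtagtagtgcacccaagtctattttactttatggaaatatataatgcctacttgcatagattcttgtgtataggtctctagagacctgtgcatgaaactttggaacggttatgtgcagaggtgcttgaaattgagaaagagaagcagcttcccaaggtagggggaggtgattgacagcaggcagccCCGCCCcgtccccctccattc
The letters of the TATA box are TATAAA. They began 117 bases before the annotated start in Col3a1 and 237 bases before it in Col13a1. The CCAAT box, named for its letters, began 196 bases before the RefSeq start in Col4a5. The 34 bases next to that start overlap an annotated exon and are not shown. The GC box of Col4a6 lay on the opposite strand, 21 bases before the start. Of the 44 genes, 35 matched a RefSeq window, with 38 windows in all. In the 250 bases before the start, counting both strands, the TATA box was in 5 of these windows (13.2%, against 12.4% of all 32851 windows) and the CCAAT box in 13 (34.2% against 33.8%). The GC box, with the letters GGGCGG, was in 22 (57.9% against 32.7%). A match describes these letters only.

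Most collagen transcript came from a few genes. By their median over the 48 libraries, 6 fibrillar, 2 type IV and 7 other genes exceeded 10 rescaled TPM, while 4, 2 and 10 stayed under 1. Fibrillar genes made up 53.4% of summed collagen TPM in the median library (39.3% to 74.4%), type IV genes 17.8% (8.94% to 34.6%) and the other genes 28.6% (16.6% to 39.5%). All 44 together took 0.326% of protein-coding TPM (0.144% to 0.81%). Of the 44, 37 passed the filter on low values and were tested. The 7 that did not are Col2a1, the main collagen of cartilage, Col4a3 and Col4a4, chains of the kidney filter, and Col6a4, Col8a2, Col19a1 and Col26a1.

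**Figure D1:**
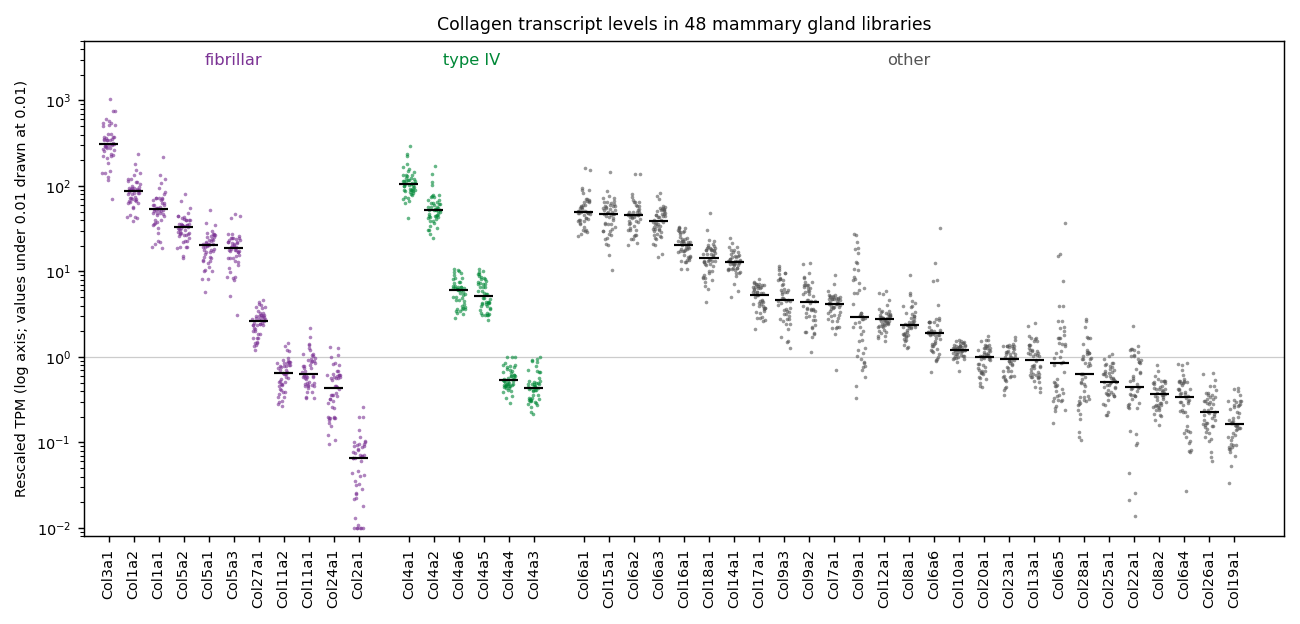
Level of each of the 44 collagen genes in the 48 libraries, in rescaled TPM on a log axis, grouped into fibrillar, type IV and other genes; each point is 1 library, black lines are medians, values under 0.01 are drawn at 0.01, and the line at 1 marks 1 rescaled TPM. Col3a1 leads with a median of 311, followed by Col4a1 at 106.

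Among the fibrillar genes, Col3a1, whose product forms homotrimeric type III collagen of fine, pliable fibrils, had the highest median at 311 rescaled TPM (71.3 to 1030). Its 2 neighbours in rank among fibrillar genes were the type I chains Col1a2 (median 87.2) and Col1a1 (53.3), and 3 chains of type V collagen, which sits inside type I fibrils and limits their width, followed (Col5a2 33, Col5a1 20.2, Col5a3 18.7). The ranges of Col1a2 (38.8 to 236) and Col1a1 (19 to 216) overlapped over most of their length. Col27a1 had a median of 2.66, and Col11a1, Col11a2 and Col24a1 lay between 0.43 and 0.646.
Col3a1 in uninduced Esr1 glands was 141, 544 and 224 at 12 months, 350, 254 and 341 at 18 months, and 300, 287 and 369 at 24 months. In uninduced CYP19A1 glands it was 521, 301 and 578, then 149, 234 and 402, then 311, 356 and 305. These ranges overlap between ages and between models, and the widest spread is among the 12-month Esr1 libraries. After 1 week of induction Col3a1 was 504, 271 and 379 (12 months) and 294, 294 and 141 (18 months) in the Esr1 model, and 341, 275 and 1030, then 223, 545 and 71.3, in the CYP19A1 model. Both the highest and the lowest value of the study thus lie in the 1-week CYP19A1 groups. The long-induced glands gave 607, 277 and 349 after 6 months, 215, 341 and 410 after 12 months and 117, 188 and 128 after 18 months in the Esr1 model. In the CYP19A1 model they gave 232, 752 and 317, then 372, 378 and 310, then 261, 522 and 756.

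Col1a1 and Col1a2 encode the chains of type I collagen, the main fibril former of connective tissue. Col1a1 in uninduced Esr1 glands was 19.1, 60.1 and 34.9 at 12 months, 50.9, 35.8 and 53.6 at 18 months, and 72.5, 55.2 and 52.6 at 24 months. In uninduced CYP19A1 glands it was 72.2, 53.1 and 94.2, then 22.4, 51.4 and 69, then 73.2, 70.1 and 62.9. The ages overlap in both models. The 1-week groups were at 68.3, 48.7 and 60.4, then 40.5, 37 and 20.9 (Esr1), and at 57.2, 47.7 and 136, then 39.6, 107 and 19 (CYP19A1). After 6, 12 and 18 months of induction Col1a1 was 73.2, 48 and 55.3, then 37.6, 45.8 and 55.3, then 22.5, 32.1 and 28.2 in the Esr1 model. In the CYP19A1 model it was 47.2, 216 and 52.7, then 60.3, 80.7 and 63.9, then 44.5, 85 and 121. The library at 216, replicate 2 of the CYP19A1 glands induced for 6 months, also held the highest Col1a2 (236 against 64 and 82.7 in its group) and the highest fibrillar share, 74.4%.
Col1a2 in uninduced glands of 12, 18 and 24 months was 43.8, 115 and 64.1, then 90.5, 66.2 and 94.8, then 72.7, 88.7 and 91.9 in the Esr1 model, and 94.9, 82.7 and 133, then 43.7, 69.8 and 111, then 90.4, 110 and 91.2 in the CYP19A1 model. After 1 week of induction it was 122, 80 and 85.8, then 71.7, 65.8 and 45.8 (Esr1), and 74.9, 67.8 and 179, then 66, 153 and 42.5 (CYP19A1). The library at 179 is also the one with the most Col1a1 among the 1-week glands. Long induction gave 121, 79.6 and 99.2, then 71.1, 93.6 and 90.2, then 38.8, 56.5 and 55.6 (Esr1), and 64, 236 and 82.7, then 90.7, 97.8 and 90.5, then 83.5, 105 and 143 (CYP19A1). Over the groups, mean Col1a2 ran from 50.3 ± 9.99 (SD, n = 3) in Esr1 glands of 30 months to 127 ± 94.2 (n = 3) in CYP19A1 glands induced for 6 months. Across the 48 libraries, on log2 values from which no group mean was taken, Col1a1 followed Col1a2 (Pearson r = 0.95, Spearman rho = 0.88, r = 0.93 without the 2 most extreme libraries) and Col3a1 (r = 0.92, rho = 0.89, r = 0.92 without 2). Differences between groups therefore count in these coefficients. Permutation over all 48 libraries, without keeping groups, gave p = 1e-05 for each of these 4 coefficients. This is the smallest that the 100000 permutations can give, and it was 1e-05 after adjustment over 6 pairs of partner genes. Libraries of 12 and 18 months alone gave r = 0.97 and 0.94, those of 24 and 30 months 0.93 and 0.90. All values of a library share its rescaling factor.

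**Figure D2:**
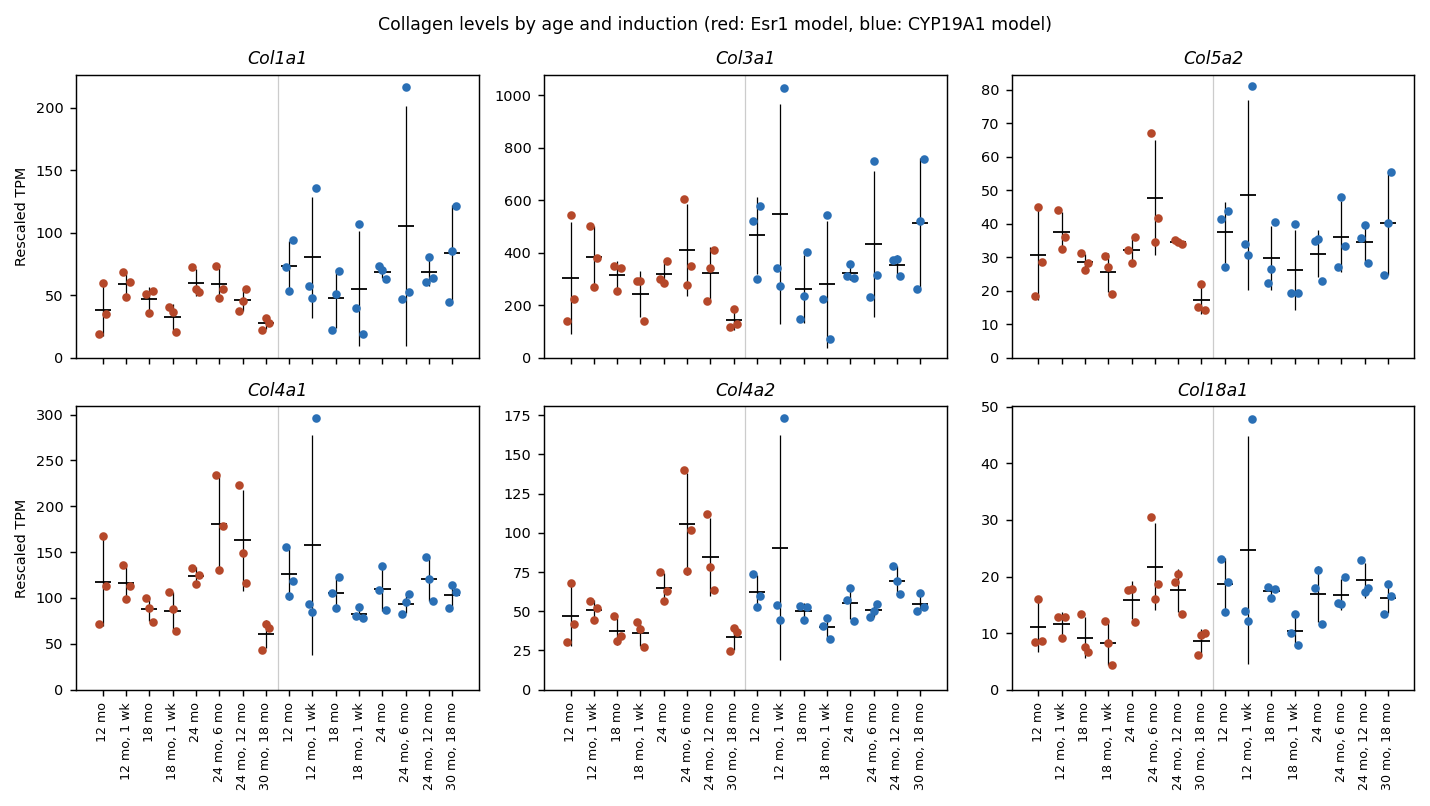
Levels of Col1a1, Col3a1, Col5a2, Col4a1, Col4a2 and Col18a1 in the 16 groups, in rescaled TPM; each point is 1 library and lines give the mean ± SD of 3. The 3 Esr1 libraries of 30 months lie low for Col4a1 (42.8 to 71.8) and Col4a2 (24.4 to 39.4).

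Type IV collagen was mostly Col4a1 and Col4a2, the chains that combine in nearly every basement membrane. Col4a1 in uninduced Esr1 glands was 71.4, 168 and 113 at 12 months, 99.8, 88.6 and 74.2 at 18 months, and 133, 115 and 125 at 24 months. In uninduced CYP19A1 glands it was 156, 102 and 119, then 105, 88.8 and 123, then 109, 135 and 86.8. In the Esr1 model the 18-month libraries lay under all 3 of 24 months and within the range of 12 months, and the ages overlapped in the CYP19A1 model. After 1 week of induction it was 136, 99.4 and 113, then 106, 87.7 and 63.8 (Esr1), and 93.3, 84.2 and 296, then 80.1, 89.7 and 78.4 (CYP19A1). The library at 296, replicate 3 of the CYP19A1 glands induced for 1 week at 12 months, also had the highest Col3a1, Col4a2 (173), Col6a1 (161), Col15a1 (147) and Col18a1 (47.9) of the study. In that library ribosomal RNA genes took 36.7% of TPM. Its white adipocyte (9.27), endothelial (4.70) and macrophage (5.12) scores were the highest of the study. Its skeletal muscle (4.07), luminal (3.60), tendon (0.60) and pericyte and smooth muscle (4.00) scores were the lowest. Long induction in the Esr1 model gave 234, 130 and 179 after 6 months, 223, 149 and 116 after 12 months and 42.8, 71.8 and 67.1 after 18 months, and in the CYP19A1 model 82.6, 95.1 and 104, then 145, 121 and 96.3, then 88.6, 114 and 107.
Col4a2 had a median of 52.8 (24.4 to 173). In uninduced glands of 12, 18 and 24 months it was 30.4, 68.1 and 42.2, then 47.1, 30.8 and 34, then 75, 56.3 and 63.1 in the Esr1 model, and 74, 52.9 and 59.6, then 53.2, 44.2 and 52.8, then 57.5, 64.8 and 43.9 in the CYP19A1 model. After 1 week of induction it was 56.7, 44.4 and 51.8, then 43, 38.9 and 27.1 (Esr1), and 54.3, 44.7 and 173, then 40.9, 45.9 and 32.2 (CYP19A1). Apart from the library at 173, these values stay within the range of the uninduced glands or close under it. Long induction gave 140, 75.4 and 102, then 112, 78.2 and 63.6, then 24.4, 39.4 and 36.7 (Esr1), and 46.5, 50.5 and 54.7, then 78.9, 69.1 and 60.9, then 50.2, 61.6 and 52.7 (CYP19A1). Its group means ran from 33.5 ± 7.97 (SD, n = 3) in Esr1 glands of 30 months to 106 ± 32.5 (n = 3) in Esr1 glands induced for 6 months. Over all 48 libraries, with no group mean taken off, Col4a2 followed Col4a1 closely (r = 0.94, rho = 0.91, r = 0.92 without 2 libraries). Col4a5 and Col4a6, the chains of the epithelial type IV network, were at medians of 5.19 and 6.11, and Col4a6 ranged from 2.85 to 10.6. Col4a6 in uninduced glands was 5.01, 6.84 and 6.34, then 9.1, 7.28 and 2.85, then 3.46, 4.68 and 5.02 (Esr1), and 4.58, 10 and 7.61, then 6.64, 6.15 and 6.56, then 3.68, 4.94 and 5.8 (CYP19A1). After 1 week it was 8.17, 10.6 and 9.83, then 8.32, 6.82 and 6.35 (Esr1), and 5.64, 7.46 and 3.45, then 9.64, 3.95 and 8.4 (CYP19A1). The highest group is the Esr1 one induced for 1 week at 12 months, whose 3 libraries lie above the uninduced ones of that age and model. Long induction gave 6.24, 6.28 and 3.29, then 3.67, 6.62 and 6.24, then 10.3, 6.07 and 6.07 (Esr1), and 3.75, 5.26 and 3.18, then 4.16, 4.46 and 6.33, then 3.67, 3.88 and 5.39 (CYP19A1). Col4a5 and Col4a6 followed each other (r = 0.84, rho = 0.84, r = 0.81 without 2), as did the low Col4a3 and Col4a4 (r = 0.69, rho = 0.63, r = 0.74 without 2). Each of these had permutation p = 1e-05, the smallest possible, and held at r = 0.70 or above within the younger and the older libraries. Col4a3 shares 563 exonic bases with a transcript on the other strand, so part of its low signal may not be its own if the strand was not used in counting, which is not given in the sources used here.

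Of the other collagens, the type VI chains Col6a1 (median 49.7), Col6a2 (45.6) and Col6a3 (39), which form beaded microfibrils around cells, and Col15a1 (46.9), a basement membrane zone collagen, were the most abundant. Col6a1 in uninduced glands was 26.1, 50.5 and 39.4 (12 months), 48.7, 36 and 39.7 (18 months) and 49.5, 56.8 and 59.1 (24 months) in the Esr1 model, and 64.6, 46.3 and 60, 42.8, 42.7 and 71, and 66.5, 70.4 and 48.9 in the CYP19A1 model. After 1 week of induction it was 48.7, 39.7 and 51.2, then 55.1, 36.8 and 27.7 (Esr1), and 51.5, 30 and 161, then 30.2, 49.7 and 29.1 (CYP19A1). Long induction gave 95, 57.2 and 89.5, then 53.3, 60.1 and 82.4, then 30.7, 38.7 and 33.3 (Esr1), and 40.9, 48.9 and 67.9, then 89.5, 64.3 and 66.4, then 46.7, 49.8 and 154 (CYP19A1). On the log2 scale, the SD of Col6a1 was 0.50 for single libraries within groups and 0.38 for the group means. These SDs are not of the same kind, since a mean of 3 libraries varies less than a single library.
Col6a2 tracked it over all 48 libraries, with no group mean taken off (r = 0.97, rho = 0.95, r = 0.96 without 2, permutation p = 1e-05). In uninduced glands Col6a2 was 20.3, 47 and 30.8, then 39.4, 30.5 and 37, then 45.6, 45.7 and 46.1 (Esr1), and 65.8, 43.6 and 64.6, then 30.7, 38.8 and 60, then 58.4, 53.1 and 45.2 (CYP19A1). After 1 week it was 45.9, 36.3 and 49.6, then 43.6, 32.5 and 24.3 (Esr1), and 46.3, 26.7 and 140, then 26.5, 49.1 and 21.5 (CYP19A1). Its highest libraries, at 140 and 138, are those of Col6a1. Long induction gave 81.3, 43.6 and 74.6, then 41.7, 49.5 and 68.4, then 24.1, 34.5 and 26.2 (Esr1), and 37.5, 45.9 and 50.1, then 65.6, 57.6 and 54, then 40.9, 47.3 and 138 (CYP19A1).
Col15a1 in uninduced glands was 29.8, 72.2 and 29.8, then 51.9, 37.1 and 23.7, then 55.1, 56.2 and 44.7 (Esr1), and 75.5, 43.1 and 59.3, then 35.5, 45.6 and 63.4, then 49.9, 58.6 and 46.5 (CYP19A1). After 1 week it was 55.9, 46.9 and 64.4, then 58.7, 36.4 and 21 (Esr1), and 54.3, 29.8 and 147, then 26.4, 31.2 and 10.5 (CYP19A1). Long induction gave 88.1, 48.7 and 64.8, then 24.7, 49.7 and 36.3, then 20.5, 15.6 and 27.8 (Esr1), and 39.9, 42.1 and 62.4, then 72.6, 67 and 46.9, then 33, 52.4 and 59.1 (CYP19A1). Group means of Col15a1 ran from 21.3 ± 6.14 (SD, n = 3) in Esr1 glands of 30 months to 77.1 ± 61.9 (n = 3) in CYP19A1 glands induced for 1 week at 12 months. Further down followed Col16a1 (20.5), a fibril-associated collagen, Col18a1 (14.5), the precursor of endostatin, and Col14a1 (12.9), which coats fibrils.
From the lowest to the highest library, Col6a5 spanned 223-fold, Col22a1 166-fold, from a level near 0, Col9a1 82.8-fold and Col6a6 47.8-fold. The within-group SD on the log2 scale was largest for Col9a1 (1.09), Col6a5 (1.05) and Col6a6 (0.74). Col6a5 and Col6a6, type VI chains encoded next to each other on chromosome 9, reached 37.2 and 32 in replicate 3 of the CYP19A1 glands of 30 months, against 1.41 and 0.243, and 1.98 and 2.06, in the others of that group. They also reached 16 and 12.7 in replicate 1 of the CYP19A1 glands induced for 1 week at 12 months, and 15 and 7.79 in the Esr1 model in replicate 3 after 12 months of induction. Col9a1, a type IX chain, was 0.335, 0.462 and 22.3 in uninduced Esr1 glands of 24 months. A mean of 3 such libraries says little about its group.

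Age was compared in uninduced glands, 24 against 12 months, with both models averaged (6 libraries against 6). 3 of the 37 tested collagens fell and 1 rose, all of them among the other types. No fibrillar and no type IV gene was called. The 4 calls are 10.8% of the members, against 9.03% of all tested genes (1030 higher or 5.1%, 795 lower or 3.93%), so the share is near the background. At an unadjusted p below 0.05 there were 9 members and 26.9% of all genes. The median change of the members was 0.10 and that of all genes 0.01.
Col13a1, a transmembrane collagen of cell contacts, was 1.12, 2.28 and 1.38 (Esr1) and 1.55, 1.62 and 2.53 (CYP19A1) at 12 months. At 24 months it was 0.591, 0.719 and 0.791, and 0.568, 1.12 and 0.662. Within the Esr1 model the ages did not overlap, and in the CYP19A1 model the highest old library (1.12) lay under the lowest young one of that model (1.55). The mean went from 1.75 to 0.743, a log2 change of -0.64 (SE 0.13, adjusted p = 0.00398).
Col9a2, a chain of fibril-associated type IX collagen best known from cartilage, was 3.97, 12.1 and 5.52 (Esr1) and 3, 9.64 and 12.6 (CYP19A1) at 12 months, and 1.95, 3.25 and 3.66, and 1.72, 3.64 and 3.59, at 24 months. One young library, at 3, lay inside the old range. The change was -1.03 (SE 0.32, adjusted p = 0.0382), from a mean of 7.82 to 2.97. Col16a1 was 16.7, 30.3 and 22.5, and 21.5, 29.6 and 32.3, at 12 months and 10.7, 18.4 and 13.4, and 13.7, 19.6 and 20.8, at 24 months. These ranges overlap between 16.7 and 20.8, and the change was -0.63 (SE 0.19, 25.5 to 16.1, adjusted p = 0.0367).
Col22a1, a collagen of muscle and tendon junctions, was the one that rose. It was 0.263, 0.276 and 0.254, and 0.355, 0.0138 and 0.0258, at 12 months, and 1.04, 1.23 and 0.327, and 0.953, 0.433 and 1.14, at 24 months. The change was +0.61 (SE 0.18, 0.198 to 0.854, adjusted p = 0.0292), and only the old library at 0.327 lay inside the young range. On the opposite strand, an antisense transcript shares 16 exonic bases with it.
The 18-month glands lay between for all 4, with changes from 12 months of -0.37 for Col13a1, -0.57 for Col9a2, -0.25 for Col16a1 and +0.26 for Col22a1, none of them called.

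**Figure D3:**
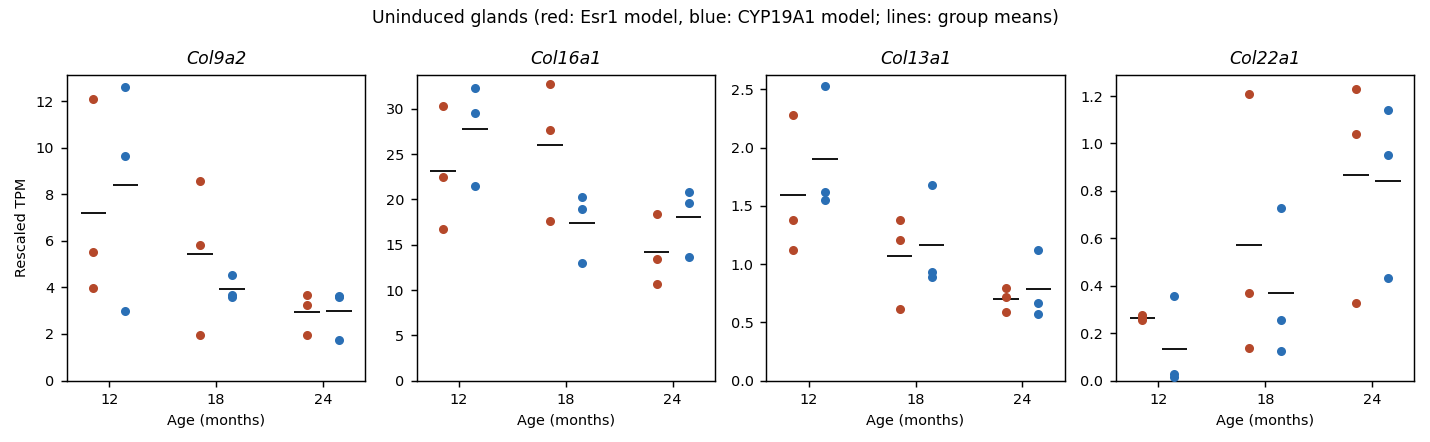
Col9a2, Col16a1, Col13a1 and Col22a1 in uninduced glands of 12, 18 and 24 months, in rescaled TPM, by model; each point is 1 library and short lines mark group means. The first 3 are lower and Col22a1 is higher at 24 months.

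The abundant collagens gave small differences with wide intervals at the same comparison. Col3a1 changed by -0.09 (95% interval -0.88 to 0.70), Col1a1 by 0.36 (-0.35 to 1.08), Col4a1 by -0.01 (-0.47 to 0.45) and Col6a1 by 0.33 (-0.23 to 0.89), none called. Changes anywhere within these intervals are compatible with these libraries. Col4a5 (-0.62, adjusted p = 0.0596) and Col11a1 (-0.31, adjusted p = 0.0652) missed the threshold. By class, 6 of 10 fibrillar genes had a positive change (median 0.11), 1 of 4 type IV genes (-0.23) and 14 of 23 others (0.10).
Within single models 0 collagens were called by limma. In the Esr1 model, where 1.8% of all genes were called, 4 members had an unadjusted p below 0.05, against 15.8% of all genes. In the CYP19A1 model, where 0.322% were called, 7 did, against 17.4% of all genes. With array weights, which count uneven libraries less, 9 and 4 collagens were called in these models. The share of all genes called with these weights is not given here, so these counts have no background. The Col13a1 change was -0.58 in the Esr1 and -0.70 in the CYP19A1 model, and the difference between the models, 0.11, was not called (adjusted p = 0.974). Between the models, 0 collagens differed in their age change (0.104% of genes called), and 0 had an unadjusted p below 0.05, against 4.92% of all genes. 18 against 12 months gave 0 calls (0% of genes called), with 2 members at an unadjusted p below 0.05 against 6.76% of all genes. 24 against 18 months gave 0 calls (3.02% of genes called), with 3 members unadjusted against 18.8% of all genes. These age comparisons share libraries.
Other tissue markers moved with age too. All 12 markers of skeletal muscle were higher (median change 2.45, 2 called), and their mean log2 score was 6.52 to 10.10 (Esr1) and 4.66 to 9.74 (CYP19A1) at 12 months against 9.01 to 10.68 and 9.71 to 10.63 at 24 months. All 8 luminal markers were lower (median -0.72, 0 called), with scores of 4.73 to 5.27 and 4.45 to 5.38 against 4.03 to 5.68 and 3.73 to 4.49. The 3 tested cartilage and bone markers, Chad, Sox9 and Cnmd, were lower (median -0.44, 0 called), with scores of 1.54 to 1.72 and 1.78 to 2.18 against 0.93 to 1.39 and 1.48 to 1.57, apart in both models. Within groups, Col16a1 and Col9a2 had their highest correlation with this list, Col13a1 with the basal one and Col22a1 with the muscle one. All 7 macrophage markers had positive changes (median 0.37, 0 called), and 2 of 7 Schwann cell and nerve markers were called higher (median 0.53). No muscle or luminal marker was at 0 in any library. The part of these cell types in the collagen changes was not tested. The library names also follow a different pattern at 24 and 30 months than at 12 and 18, which cannot be told apart from age. With the deposited TPM unscaled, Col22a1 alone was called (adjusted p = 0.0212) and Col13a1 missed (-0.62, adjusted p = 0.071), and calls over all genes were 832 higher and 114 lower. Without the 9 libraries rich in ribosomal RNA, Col13a1 (-0.55, adjusted p = 0.0467) and Col9a2 (-1.27, adjusted p = 0.044) remained called and Col22a1 did not (adjusted p = 0.117).

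Genes that make, bind or remodel collagen, from lists named by their function, are set here against the 9.03% of all tested genes that were called with age. Of 20 tested genes for collagen synthesis and secretion, 1 rose, P4ha2, a subunit of prolyl 4-hydroxylase, which stabilises the triple helix (0.64, adjusted p = 0.0174). Of 12 genes for propeptide removal and cross-linking, 1 rose, the procollagen C-proteinase Tll1 (0.34). Of 17 fibril-binding matrix genes, 2 rose, thrombospondin 2 (Thbs2, 0.92, adjusted p = 0.0113) and tenascin X (Tnxb, 0.77, adjusted p = 0.0208). Of 16 basement membrane partners of type IV collagen, 2 laminin chains fell, Lama1 (-1.02, adjusted p = 0.0146) and Lamc3 (-0.72, adjusted p = 0.027). Of 9 collagen receptors, the integrin chain Itga2 fell (-0.60), and 0 of 13 genes of collagen degradation were called. In the TGF-beta axis, a main inducer of fibrillar collagen, 1 of the 15 genes reported rose, Ltbp4, which binds latent TGF-beta (0.63, adjusted p = 0.0484). The median changes of these lists, in the order given, were 0.05, 0.24, 0.20, 0.01, -0.02 (receptors), -0.02 (degradation) and 0.07, beside 0.01 over all genes.

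The 2 models differed before any induction. Averaged over the 3 ages (9 libraries against 9), 6 of 37 collagens were higher in uninduced CYP19A1 than in uninduced Esr1 glands and 0 were lower. This is 16.2% of the members, against 16.7% of all genes called in either direction, 7.75% higher and 8.98% lower. 3 are fibrillar and 3 are of other types. The median change of the members was 0.15 (29 of 37 positive) and that of all genes -0.02.
Col11a1, a minor fibrillar chain that starts fibrils in cartilage, was 0.669, 0.785 and 0.576 at 12 months, 0.743, 0.599 and 0.456 at 18 months and 0.335, 0.343 and 0.601 at 24 months in the Esr1 model. In the CYP19A1 model it was 1.39, 1.41 and 1.26, then 0.807, 0.871 and 0.953, then 0.394, 1.05 and 1.07. At 12 and at 18 months the models did not overlap, and at 24 months 1 CYP19A1 library, at 0.394, lay among the Esr1 ones. The log2 difference was 0.36 (SE 0.09, means 1.02 and 0.567, adjusted p = 0.00523).
Col11a2, its partner chain, was 0.775, 0.856 and 0.336, then 1.34, 0.795 and 0.584, then 1.21, 0.666 and 1.47 in CYP19A1 glands and 0.856, 0.283 and 0.742, then 0.299, 0.456 and 0.794, then 0.547, 0.488 and 0.759 in Esr1 glands. The models overlap at each age, and the difference was 0.25 (SE 0.09, 0.892 and 0.58, adjusted p = 0.0467). Col27a1, a fibrillar chain of cartilage and other tissues, was 4.39, 2.99 and 4.14, then 3.3, 2.74 and 3.13, then 2.5, 2.94 and 3.04 in CYP19A1 glands and 2.77, 2.39 and 2.01, then 2.16, 1.34 and 1.22, then 3.83, 2.88 and 1.38 in Esr1 glands. The models were apart at 12 and at 18 months and overlapped at 24. The difference was 0.43 (SE 0.12, 3.24 and 2.22, adjusted p = 0.0135).
Col28a1, a collagen of peripheral nerve, was 0.274, 0.24 and 0.303, then 0.337, 0.186 and 0.286, then 0.636, 0.497 and 0.559 in uninduced Esr1 glands, and 0.484, 0.587 and 0.852, then 2.66, 0.306 and 1.08, then 1.14, 1.69 and 0.787 in uninduced CYP19A1 glands. At 12 and at 24 months the models did not overlap. The difference was 0.53 (SE 0.16, 1.07 and 0.369, adjusted p = 0.0171).
Col25a1, a transmembrane collagen needed for muscle innervation, was 1.03, 0.718 and 0.491, then 0.515, 0.574 and 1.08, then 0.366, 0.848 and 0.549 in CYP19A1 glands and 0.285, 0.632 and 0.508, then 0.643, 0.692 and 0.273, then 0.212, 0.377 and 0.211 in Esr1 glands. The difference was 0.24 (SE 0.08, 0.686 and 0.426, adjusted p = 0.0385). Col18a1 was 8.48, 16.1 and 8.65, then 13.3, 7.56 and 6.7, then 17.7, 17.8 and 11.9 in Esr1 glands, and 23.1, 13.7 and 19, then 18.1, 16.2 and 17.8, then 18, 21.2 and 11.6 in CYP19A1 glands. Only the 18-month groups were apart, and the difference was 0.57 (SE 0.20, 17.6 and 12, adjusted p = 0.0489). All called genes but Col18a1 have mean levels under 4, where the 1 added before the log matters most.

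**Figure D4:**
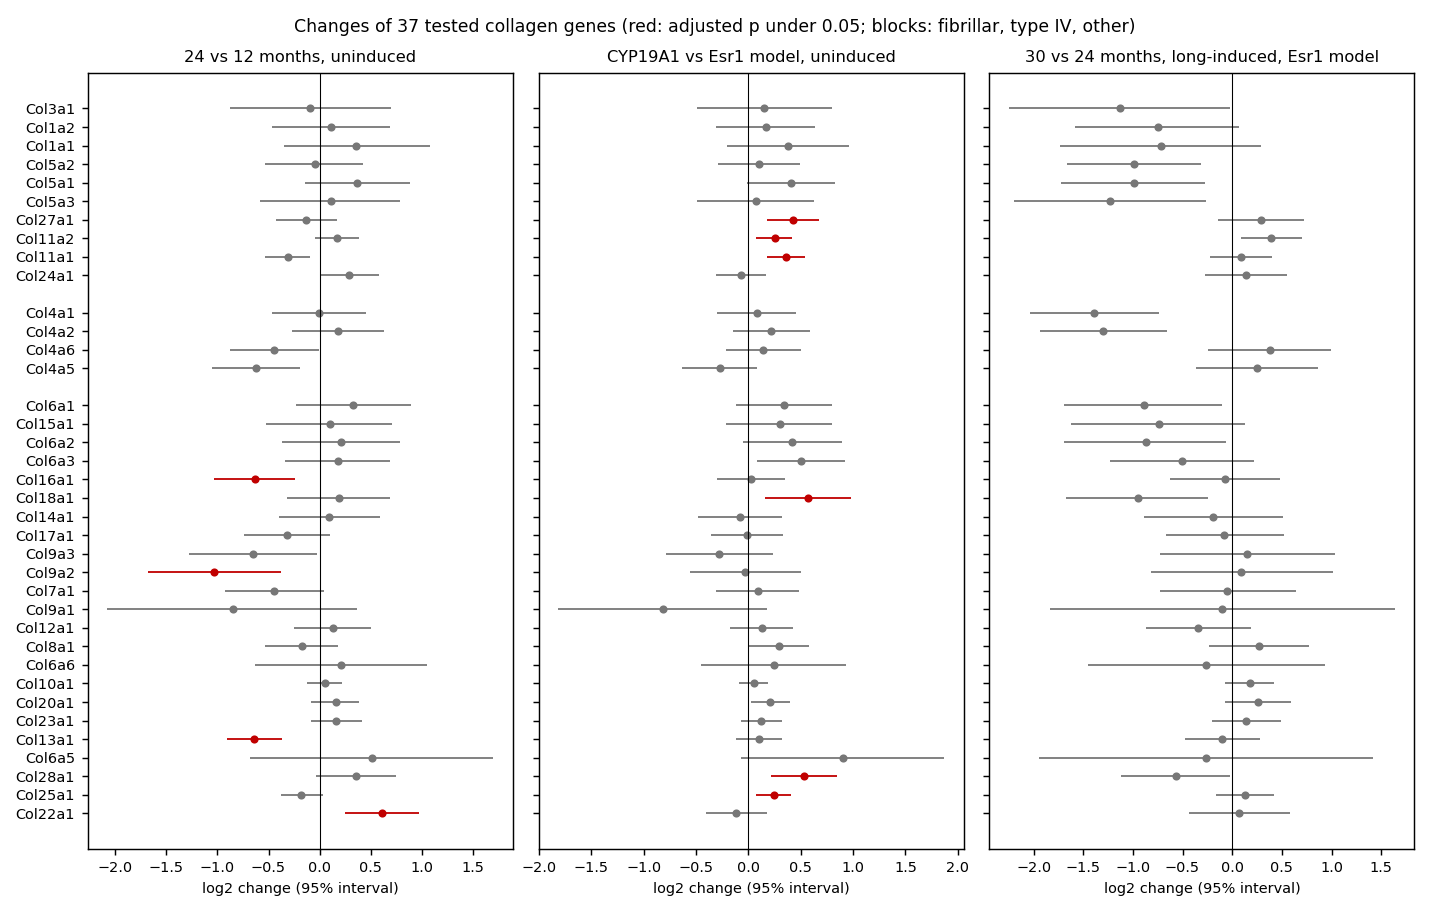
Log2 change with its 95% interval for the 37 tested collagens in 3 comparisons: 24 against 12 months in uninduced glands, CYP19A1 against Esr1 uninduced glands, and Esr1 glands of 30 months with 18 months of induction against 24 months with 12 months; red marks adjusted p below 0.05. Red points number 4, 6 and 0.

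Some basement membrane partners and most endothelial markers were also called higher in uninduced CYP19A1 glands, against 7.75% of all genes. Of 16 partners of type IV collagen, 5 were higher, including peroxidasin (Pxdn, 0.60), which cross-links type IV collagen, the laminin chain Lama4 (0.60) and perlecan (Hspg2, 0.58), while Col4a1 (0.08, 95% interval -0.30 to 0.45) and Col4a2 (0.22, -0.15 to 0.59) were not called. Of 8 endothelial markers 7 were higher (median 0.46), with scores of 3.19 to 3.90 over the uninduced Esr1 libraries and 3.71 to 4.36 over the uninduced CYP19A1 ones. Of 7 markers of Schwann cells and nerve, 4 were higher and 1 lower (median 0.50). All 8 white adipocyte markers had positive differences (median 0.40) and all 12 muscle markers negative ones (median -0.74), with 0 called in either list. The part of these in the collagen differences was not tested. With the deposited TPM, which shifts the median of all genes by -0.10, 0 of the 6 were called, all 6 kept a positive sign, and 198 genes were higher and 398 lower. Scaling to the sum over protein-coding genes gave 4 of 37 collagens, with 1151 genes higher and 552 lower. Without the libraries rich in ribosomal RNA, 3 collagens were called, among them Col11a1 (0.35, adjusted p = 0.0358) and Col28a1 (0.44, adjusted p = 0.0393).

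Among the long-induced glands (6, 12 and 18 months averaged, 9 libraries against 9), 2 of 37 collagens were higher in the CYP19A1 model and 0 lower, 5.41% against 9.84% of all genes (4.73% higher, 5.11% lower). Col11a2 was 0.409, 0.484 and 0.466, then 0.308, 0.268 and 0.386, then 0.655, 0.924 and 0.629 in Esr1 glands, and 0.979, 0.564 and 0.89, then 0.811, 0.866 and 0.877, then 1.19, 0.799 and 0.873 in CYP19A1 glands. The models did not overlap after 6 or 12 months and did after 18. The difference was 0.32 (SE 0.09, 0.872 and 0.503, adjusted p = 0.0144). Col27a1 was 3.31, 4.61 and 2.36, then 2.69, 2.63 and 3.07, then 2.96, 2.8 and 3.88 in CYP19A1 glands against 3.05, 1.68 and 1.46, then 1.48, 2.37 and 1.88, then 1.67, 3.41 and 2.75 in Esr1 glands, with overlap at the first and the last of these times. Its difference was 0.39 (SE 0.12, 3.15 and 2.19, adjusted p = 0.035). Col1a1 was higher by 0.84 without passing (means 85.7 and 44.2, adjusted p = 0.0584). All 10 tested fibrillar genes had a positive difference (median 0.36) and all 4 type IV genes a negative one (median -0.26), beside a median of 0.01 over all genes. Of 7 basal and myoepithelial markers, 4 were lower in CYP19A1 glands, among them Krt5 (-0.91) and Krt14 (-0.86), and so was 1 of 8 luminal markers, Cldn3 (-1.02), while 3 of 8 endothelial markers were higher. Their part was not tested. The deposited TPM left Col11a2 alone (adjusted p = 0.011), with 601 genes higher and 238 lower against 956 and 1033 after rescaling.

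With either transgene, no collagen passed the threshold on induction, though some did under other settings. Array weights gave 5 calls for 1 week at 12 months, 1 averaged over ages and 1 after 12 months in the Esr1 model. Leaving out the filter on low values gave 1 for 1 week at 12 months in the CYP19A1 model. These counts, too, stand without the share of all genes called under the same setting. After 1 week, averaged over 12 and 18 months, limma called 0 of 37 for Esr1 (0.00495% of genes called) and 0 of 37 for CYP19A1 (0% of genes called). An unadjusted p below 0.05 was reached by 0 and 4 members, against 8.14% and 3.51% of all genes. At single ages there were also 0 calls (0% of genes called in each). In the Esr1 model 2 members at 12 months and 0 at 18 months had an unadjusted p below 0.05, against 8.73% and 1.97% of all genes. For CYP19A1 these were 8 and 2 of the 37, against 7.32% and 3.23% of all genes. The lowest adjusted p was that of Col13a1 in CYP19A1 glands at 12 months (-0.76, adjusted p = 0.201), which stood at 0.441, 1.07 and 0.619 after induction. All 3 libraries lay under the uninduced ones of that age and model. In these 3 libraries ribosomal RNA genes took 43.4% of TPM on average.
Averaged over both ages, Col3a1 differed by 0.05 (95% interval -0.74 to 0.83) and Col4a1 by 0.00 (-0.46 to 0.46) in the Esr1 model, and by -0.10 (-0.89 to 0.69) and -0.12 (-0.58 to 0.34) in the CYP19A1 model. Changes anywhere within these intervals are compatible with these values. The difference between the models in their 1-week response was called for 0 collagens (0% of genes called), with 2 unadjusted against 7.17% of all genes.
Long induction was compared with uninduced glands of 24 months, which the 6- and 12-month comparisons of a model share. In the Esr1 model 0 collagens were called after 6 months and 0 after 12 months, with 0% of genes called in each, and 2 and 1 had an unadjusted p below 0.05, against 2.92% and 2.88% of all genes. The median change of the members was 0.23 after 6 months, with 29 of 37 positive, and 0.13 after 12 months. Col4a2 after 6 months was 140, 75.4 and 102 against 75, 56.3 and 63.1 (0.66, SE 0.31, adjusted p = 1). In the CYP19A1 model 0 were called after 6 months (0% of genes) and 0 after 12 months (0.0148% of genes), 0 had an unadjusted p below 0.05 at either time, against 2.13% and 1.73% of all genes, with medians of -0.06 and 0.04. The difference between the models was called for 0 collagens (0% of genes), with 0 unadjusted against 2.27% of all genes.

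Esr1 glands of 30 months with 18 months of induction had the lowest summed collagen of the 16 groups, at 498.5, 651.6 and 569.5 rescaled TPM (mean 573). Set against Esr1 glands of 24 months with 12 months of induction, 0 of 37 were called by limma (0.104% of all genes were). Of the 37, 11 had an unadjusted p below 0.05, a larger share than the 11.1% of all genes. Age and length of induction differ together here and cannot be told apart. Col4a1 was 42.8, 71.8 and 67.1 against 223, 149 and 116, a log2 change of -1.39 (95% interval -2.04 to -0.74, adjusted p = 0.0629). Col4a2 was 24.4, 39.4 and 36.7 against 112, 78.2 and 63.6 (-1.30, adjusted p = 0.0659). Neither pair of groups overlaps. Col5a2 was 15.3, 22 and 14.4 against 35.1, 34.6 and 34 (-0.99, adjusted p = 0.22), again without overlap, and Col5a1 (-0.99), Col5a3 (-1.23), Col3a1 (-1.13), Col18a1 (-0.95), Col6a1 (-0.89), Col6a2 (-0.87) and Col28a1 (-0.57) had lower values, with Col11a2 (+0.39) the one with a higher value among the 11.
Without the libraries rich in ribosomal RNA, which take replicate 3 from the 30-month group, both type IV chains were called (Col4a1 -1.48, adjusted p = 0.018, Col4a2 -1.38, adjusted p = 0.0199), and likewise without replicate 3 of the 12-month induction (-1.61, adjusted p = 0.0298, and -1.48, adjusted p = 0.0466). In the 6 fits that each left out 1 library, Col4a1 changed by -1.61 to -1.14 and Col4a2 by -1.48 to -1.08. Each chain was called in 1 of these 6 fits. Replicate 1 of the 12-month induction had the highest type IV share of the study, 34.6% of collagen TPM. The deposited TPM shifts the median of all genes by -0.36 in this comparison.
Pxdn fell (-0.88, adjusted p = 0.0255), the one called among 16 partners of type IV collagen, and so did the fat cell hormone Lep (-3.83, from 303 to 19.9, adjusted p = 0.0448). All 8 white adipocyte markers had negative changes (median -0.78, 1 called), with scores of 6.74 to 7.68 against 8.02 to 8.81. All 7 macrophage markers had negative ones (median -0.48, 0 called), with scores of 3.95 to 4.39 against 4.35 to 4.87. All 12 muscle markers had positive ones (median 1.23, 0 called). Their part in the collagen values was not tested. In the CYP19A1 model the same comparison gave 0 calls (0% of genes called), with 1 unadjusted against 2.17% of all genes and Col4a1 at 88.6, 114 and 107 against 145, 121 and 96.3 (-0.21, 95% interval -0.86 to 0.44). The difference between the models here was not tested.

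Ratios of 2 collagens within a library do not depend on the rescaling. The ratio of Col3a1 to Col1a1 averaged 6.9 in uninduced glands of 12 months and 5.01 at 24 months (6 libraries each, log2 difference -0.46, exact two-sided permutation test within models p = 0.01). Adjusted over the 18 ratio tests made, p was 0.18. Col4a2 to Col4a1 averaged 0.446 and 0.512 at those ages (0.20, exact permutation p = 0.035, adjusted 0.21), and 0.556 in the 12 long-induced libraries of 24 months against 0.512 in the 6 uninduced ones (0.12, exact permutation p = 0.023, adjusted 0.207). None of the 18 passed adjustment. The smallest p that the age design allows in the exact permutation test is 0.005. Col6a2 to Col6a1 moved least, between 0.824 and 0.914 over the groups compared.

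Collagens differed in the cell type markers they followed. For each of the 37 tested genes and 12 marker lists, differences from the group mean were correlated over the 48 libraries, 444 relations in all. Counting positive and negative coefficients alike, 52 passed adjustment of both coefficients, and 20 genes had at least 1. The relations named below are positive. Col4a5 followed the 8 luminal markers (r = 0.96, rho = 0.95, permutation p = 1e-05, adjusted p = 0.000493), at 0.95 without the 2 most extreme libraries and 0.96 among both the younger and the older libraries. Col9a3 (0.82), Col4a6 (0.77), Col9a1 (0.76) and Col9a2 (0.65) followed the same list. The cartilage and bone list was the best for Col16a1 (r = 0.70, rho = 0.68, 0.65 without 2, adjusted p = 0.00178) and for Col9a2 (r = 0.66, rho = 0.58, 0.55 without 2, adjusted p = 0.0121), and Col9a3 (0.76) and Col9a1 (0.59) also followed it. Col17a1, the hemidesmosome collagen of basal cells, followed the 7 basal and myoepithelial markers (r = 0.83, rho = 0.81, 0.79 without 2). Col13a1 followed them at r = 0.57.
Among stromal members, Col14a1 followed the 11 fibroblast markers (r = 0.77, rho = 0.74, 0.71 without 2). Col18a1, Col4a2 and Col4a1 followed the 8 white adipocyte markers (0.69, 0.63 and 0.61), and Col4a1 also the macrophage list (0.69). Col22a1 followed the 12 skeletal muscle markers (r = 0.61, rho = 0.74, 0.62 without 2), and so did Col23a1 (r = 0.66). 17 genes passed with no list, among them Col3a1, Col1a1, Col1a2 and Col5a2. The best list for Col3a1 was the fibroblast one, at r = 0.31 (adjusted p = 0.23). Of the 11 cartilage and bone markers only Chad, Sox9 and Cnmd were tested, and the cartilage genes Acan and Matn1 were at or near 0 (highest 0.0925 and 0.0516 rescaled TPM). The points of a relation share a library and its rescaling factor, and the luminal, basal and cartilage lists rise and fall in many of the same libraries.

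**Figure D5:**
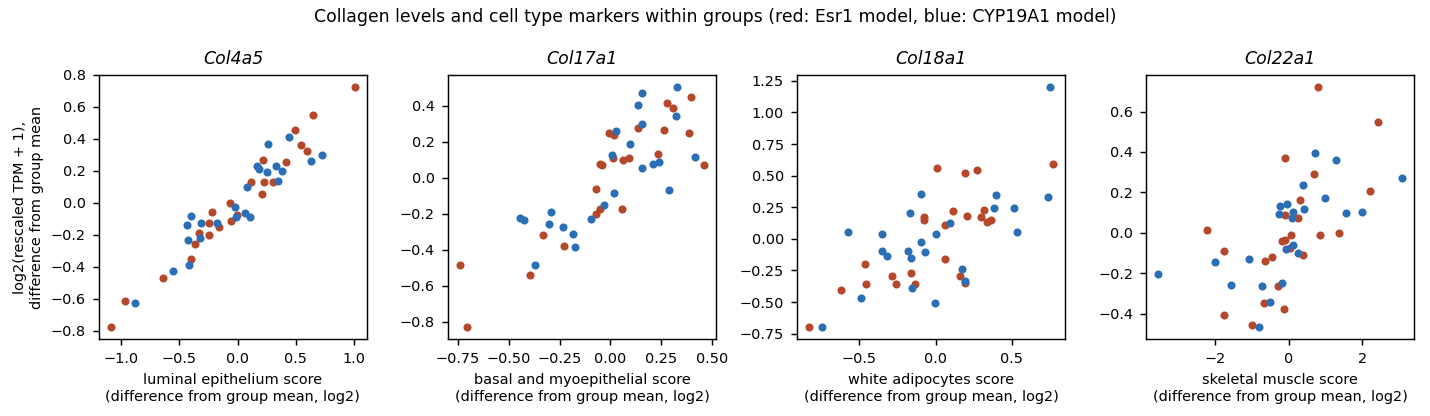
Difference of a collagen from its group mean (vertical, log2) against that of a marker list score (horizontal, log2) in the 48 libraries, for Col4a5 with luminal, Col17a1 with basal, Col18a1 with white adipocyte and Col22a1 with skeletal muscle markers; each point is 1 library. Pearson r is 0.96, 0.83, 0.69 and 0.61.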

How the data were processed

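Per the submitters' processing notes, reads were handled with FastQC 0.11.9, Trim Galore 0.6.5, STAR 2.7.9a and RSEM 1.3.1 on mm10; the annotation release and strand setting are not given in the sources used here. Libraries were stranded, rRNA-depleted total RNA. The authors deposited TPM per gene, 1 table for 48 libraries, and depth cannot be read from it. Here TPM were rescaled by the median ratio over the 20045 genes above 0 in every library and fitted as log2(value + 1) with limma 3.58.1 (R 4.3.3), 16 group means, a trended prior and 22 comparisons, tested on simulated data. The members and gene lists were chosen with earlier results of these data known, and the marker relations were added after seeing the data. By rule, the 3 most abundant genes of each class were named with the value of every library, called collagens with the libraries of the comparison, and of each further list up to 4 called genes. In the TGF-beta list, 1 gene is not reported here and was left out of its counts and median. Alternatives were deposited TPM, scaling to the protein-coding sum, a pseudocount of 0.1, no filter, the compared groups alone, a replicate block, array weights, leaving out libraries with over 10% ribosomal RNA, and leaving out each library. Gene positions are mm10.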

Additional observations from a re-analysis of the deposited data

How the results depend on the processing

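With few libraries per group and unknown depth, counts of called collagens moved more than the directions, and no called change reversed its sign under any alternative run. The counts of this section stand without the share of all genes called under each setting. For age 24 against 12 months (4 called), the count was 1 with deposited TPM, 2 with protein-coding scaling, 0 with the compared groups alone, 12 with array weights and 2 without libraries rich in ribosomal RNA; leaving out 1 library gave 1 to 6. It was 1 without Esr1 12-month replicate 2, Esr1 24-month replicate 1, CYP19A1 12-month replicate 2 or 3, or CYP19A1 24-month replicate 1, and 2 without Esr1 24-month replicate 2 or CYP19A1 24-month replicate 3. Col13a1 remained called in all 12 of these fits (-0.71 to -0.55), and Col9a2, Col16a1 and Col22a1 lost their call in 7, 6 and 7. For uninduced CYP19A1 against Esr1 glands (6), it was 0 with deposited TPM, 3 without the filter, 2 with the compared groups alone and 3 without the libraries rich in ribosomal RNA, and 3 to 5 when 1 library was left out, with 3 without Esr1 24-month replicate 3, CYP19A1 12-month replicate 1 or CYP19A1 18-month replicate 1. Col11a1 remained called in all 18 of these fits (0.32 to 0.42). For long-induced glands (2), it was 1, 4, 10 and 1 with deposited TPM, the compared groups alone, array weights and without the libraries rich in ribosomal RNA, and 1 to 4 when 1 library was left out: 4 without replicate 1 of 12 months of Esr1 induction, and 1 without replicate 2 or 3 of 6 months, replicate 3 of 12 months or replicate 1 of 18 months in the Esr1 model, or replicate 1 or 3 of 12 months or replicate 3 of 18 months in the CYP19A1 model. Where the count was 0, omitting the filter gave 1 for age in the CYP19A1 model and 1 for 1 week at 12 months in that model. Array weights, which ran from 0.194 to 8.81, gave 4 and 9 for age in the CYP19A1 and Esr1 models, 13 for 24 against 18 months, 5 for 1 week at 12 months and 1 averaged over ages in the Esr1 model, 1 after 12 months of Esr1 induction, and 2 for Esr1 glands of 30 against 24 months. That last count was also 2 without the libraries rich in ribosomal RNA and 0 to 2 when 1 library was left out. Leaving out 1 library gave 0 to 2 for age in the CYP19A1 model, with 2 without 12-month replicate 1, and 0 in every comparison not named here. The cause was not tested. Without the libraries rich in ribosomal RNA, the ratio differences were -0.40 (exact permutation p = 0.0667) for Col3a1 to Col1a1 and 0.17 (p = 0.0833) for Col4a2 to Col4a1 with age, and 0.12 (p = 0.0523, exact permutation) with long induction. Leaving out 1 library moved the ratios of Col3a1 to Col1a1 between -0.56 and -0.37 with age and 0.11 and 0.31 with long induction, those of Col4a2 to Col4a1 between 0.17 and 0.22 with age, 0.05 and 0.11 with 1 week and 0.10 and 0.15 with long induction, Col5a2 to Col1a2 between 0.09 and 0.24 with long induction, and Col4a1 to Col1a1 between -0.50 and -0.31 with age and 0.15 and 0.41 with long induction. Replicate numbers do not pair the libraries: same-numbered libraries had a mean correlation of 0.01 (-0.47 to 0.40) and others of -0.00. With the replicate block the age count stayed at 4 and the uninduced model count was 5, as Col18a1 missed (0.57, adjusted p = 0.0527). Leaving out the libraries rich in ribosomal RNA was not run for 1 week at 12 months in the CYP19A1 model, the average over ages or the difference between models, where no induced library was left.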
